A study of Mus musculus with 4 samples.

Results

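Lymphatic endothelial genes were followed in the stromal vascular fraction of mouse inguinal white fat, the cells left when floating adipocytes are removed from digested tissue. The 10 genes, taken by symbol, were Prox1, Lyve1, Pdpn, Flt4, Reln, Mmrn1, Ackr4, Stab2, Foxc2 and Vegfc. All 10 were found among 26214 listed symbols, and all 10 were among the 16196 genes that passed the count filter and were tested. RNA was sequenced from 2 libraries of mice given a medicinal herb extract (MHE) and 2 of mice given phosphate-buffered saline (PBS), labelled as biological replicates. The labels do not state what the extract contains, its dose or duration, or the strain, sex, age and feeding of the mice. They name no other treatment for either group, nor whether a library holds 1 animal or a pool.

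Lymphatic capillaries take up tissue fluid, immune cells and absorbed lipid and pass them through collecting vessels to lymph nodes, several of which lie in subcutaneous fat. The growth factor VEGF-C, encoded by Vegfc, binds the receptor VEGFR-3, encoded by Flt4, and so drives the growth of these vessels. The transcription factor PROX1 gives endothelial cells their lymphatic identity and keeps it. None of the genes is restricted to lymphatic endothelium: Lyve1 is also found on some tissue macrophages, Pdpn on fibroblastic reticular and mesothelial cells, Mmrn1 in platelets and Vegfc in vessel wall and stromal cells.

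Library totals ran from 27161882 to 33391075 counts. Levels are counts-per-million (CPM) values scaled with TMM factors, given by library, with group means ± SD (n = 2). Log2 fold changes are MHE minus PBS with a standard error (SE). Adjusted p is Benjamini-Hochberg over all 16196 tested genes, and a gene is said to have risen or fallen only at an adjusted p under 0.05. Adipocyte transcripts were present in every library of this fraction: 9 adipocyte markers summed to 23416 and 15187 CPM with the extract and to 26267 and 37787 CPM with saline, and Lep, which encodes leptin, was the 1 of them that fell. Prox1, the defining lymphatic gene, was detected in all 4 libraries, with 16 counts in the lowest. The PBS libraries differed from each other more than the MHE libraries did for Prox1, Stab2 and Mmrn1, and for mesothelial and lymphocyte markers.

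Lyve1 and Stab2 rose with the extract and none of the 10 genes fell. Thus 2 of the 10 (20%) were called by edgeR, using its quasi-likelihood test, where 4.93% of all tested genes passed in either direction, 3.97% higher with the extract and 0.963% lower. The median log2 fold change of the 10 genes was 1.11, against -0.02 for all tested genes. The 10 genes were chosen with earlier results of these data known, so these comparisons are descriptions and not tests. Of the 10, 8 had positive and 2 had negative fold changes. Both MHE libraries lay above both PBS libraries for 6 genes and below them for Vegfc. Those 7 of 10 genes without overlap stand beside 62.0% of all tested genes, so that share was near the background. In bulk RNA of this kind, fewer cells of a type and less RNA per cell cannot be told apart.

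**Figure D1:**
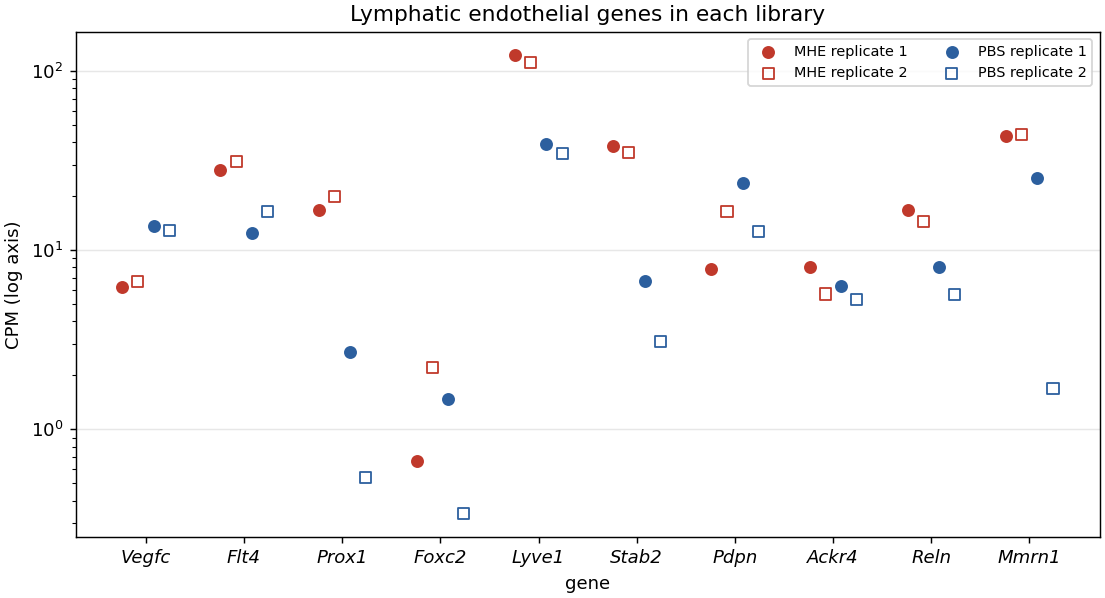
Level of each lymphatic endothelial gene in each library, in CPM on a log axis, with filled circles for replicate 1 and open squares for replicate 2 (red, MHE; blue, PBS). The MHE points lie above the PBS points for Flt4, Prox1, Lyve1, Stab2, Reln and Mmrn1 and below them for Vegfc, and Mmrn1 spans 1.69 to 25.3 CPM between the PBS libraries.

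The bases before 1 transcription start each are shown for 4 genes with different patterns: Prox1 and Reln, higher in both MHE libraries, Vegfc, lower in both, and Pdpn, whose groups overlapped. Of the 10 genes, 8 had an entry in the RefSeq promoter table of GRCm38.p6, with 9 starts in all, and Lyve1 and Foxc2 were not matched. Each run is the 250 bases before a start, 5′ to 3′ on the gene's strand. Capitals mark GGAA or its reverse complement TTCC, the core bound by ETS factors, a family active in endothelial cells.
Prox1, chr1:190170828-190171077, minus strand: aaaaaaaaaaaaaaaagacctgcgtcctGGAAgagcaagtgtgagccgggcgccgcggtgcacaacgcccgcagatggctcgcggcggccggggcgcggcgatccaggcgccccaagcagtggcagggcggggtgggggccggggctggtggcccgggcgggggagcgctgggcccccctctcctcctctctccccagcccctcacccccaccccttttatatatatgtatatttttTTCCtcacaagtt
Reln, chr5:22344706-22344955, minus strand: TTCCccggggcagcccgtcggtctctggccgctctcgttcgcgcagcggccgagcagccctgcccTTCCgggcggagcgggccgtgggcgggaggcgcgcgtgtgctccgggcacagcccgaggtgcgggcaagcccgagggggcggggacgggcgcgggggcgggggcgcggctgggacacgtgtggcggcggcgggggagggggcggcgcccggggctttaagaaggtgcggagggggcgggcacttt
Pdpn, chr4:143299565-143299814, minus strand: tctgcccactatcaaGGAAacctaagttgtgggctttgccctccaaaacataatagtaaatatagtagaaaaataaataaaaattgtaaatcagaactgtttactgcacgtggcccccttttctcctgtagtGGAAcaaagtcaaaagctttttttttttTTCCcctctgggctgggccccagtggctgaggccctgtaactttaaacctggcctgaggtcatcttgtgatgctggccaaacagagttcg
Vegfc, chr8:54077282-54077531, plus strand: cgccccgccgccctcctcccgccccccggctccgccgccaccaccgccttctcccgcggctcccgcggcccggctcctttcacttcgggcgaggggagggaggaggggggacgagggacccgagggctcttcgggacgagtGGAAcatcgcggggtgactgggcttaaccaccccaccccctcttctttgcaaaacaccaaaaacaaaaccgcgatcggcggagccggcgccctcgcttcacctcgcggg

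The Prox1 window held 2 ETS cores, that of Reln 2, that of Pdpn 3 and that of Vegfc 1. This core is common: 93.4% of 32851 promoter windows of the same length held it on either strand. The SOX core ACAAT was found in the Pdpn window alone among these 4 printed windows (27.7% of all windows), as was the FOX core TGTTTA (3952 of the 32851 windows). The GATA core AGATAA was in none of them (3281 of the 32851 windows). TATAAA, the letters of a TATA box, was matched 34 bases before the Prox1 start only as its reverse complement TTTATA on the gene's strand. A match on either strand was in 12.4% of all windows. GC content was 80.0% for Reln, 71.6% for Vegfc, 64.8% for Prox1 and 43.2% for Pdpn, against a median of 52.4% over all windows. The table also holds a second Prox1 start, inside the gene, whose window (chromosome 1, 190169516 to 190169765) is not printed. That window held 5 ETS cores, a FOX core 166 bases before the start and no match to the SOX, GATA or TATA letters, at a GC content of 56.0%. Such matches describe the letters only.

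The ligand and its receptor had fold changes of opposite sign. Vegfc (chromosome 8, 54077606 to 54187096 in GRCm38) stood at 6.23 and 6.70 CPM in MHE replicates 1 and 2 and at 13.5 and 12.8 CPM in PBS replicates 1 and 2. Each pair of replicates was close and the groups were apart. Its log2 fold change was -1.03 ± 0.24 (SE), and it did not pass the edgeR test (adjusted p = 0.0758). Markers of smooth muscle, a vessel wall cell, lay on the same side. Of 7, Lmod1 fell, and Acta2, Tagln and Myh11 had log2 fold changes of -2.94, -2.18 and -3.11 without passing in edgeR. With DESeq2 5 of the 7 passed and with limma-voom 1, where 18.2% and 7.00% of all tested genes did. The list summed to 286 and 477 CPM with the extract and 2648 and 2553 CPM with saline. Single genes differed between PBS replicates 1 and 2, with Acta2 at 1025 and 2214 CPM. Myh11 stood there at 521 and 66.6 CPM and Cnn1 at 338 and 2.40 CPM. Lmod1 was closer, at 51.7 and 60.4 CPM. Cnn1 and Des overlapped between the groups. Of 9 fibroblast and progenitor markers none passed with edgeR (3 at an unadjusted p under 0.05, 3 with DESeq2 and 0 with limma-voom). Among all 16196 tested genes, 4626 had an edgeR unadjusted p under 0.05. The 9 markers summed to 2730 and 2802 CPM against 3213 and 4093 CPM. The part of smooth muscle or fibroblasts in the level of Vegfc was not tested. Flt4 (chromosome 11, 49609263 to 49652739) stood at 27.9 and 31.3 CPM with the extract and 12.4 and 16.5 CPM with saline. All MHE values were above all PBS values, with a log2 fold change of 1.03 ± 0.24 and an edgeR adjusted p of 0.0721.

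The transcription factors differed in how far the groups stood apart. Prox1 (chromosome 1, 190118035 to 190170714) had 557 and 566 counts with the extract and 75 and 16 with saline, or 16.8 and 19.9 against 2.71 and 0.541 CPM. Every MHE value was high and both PBS values were low, but the PBS libraries differed 5.01-fold from each other. The log2 fold change of 3.50 ± 0.76 was the largest of the 10 genes and missed the threshold (edgeR adjusted p = 0.0675). Leaving out PBS replicate 1 gave 5.06 and leaving out PBS replicate 2 gave 2.77. Leaving out MHE replicate 1 gave 3.63 and leaving out MHE replicate 2 gave 3.38. Foxc2 (chromosome 8, 121116171 to 121118895), which shapes the valves of collecting lymphatics, had only 22 and 63 counts with the extract and 41 and 10 with saline. Its groups overlapped, at 1.44 ± 1.10 and 0.909 ± 0.807 CPM, and its edgeR adjusted p was 0.684.

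Both genes that rose encode receptors that bind hyaluronan, a glycan of the extracellular matrix that drains through lymph. Lyve1 (chromosome 7, 110850607 to 110863239), the receptor used as a marker of lymphatic capillaries, stood at 122 and 111 CPM with the extract and 38.8 and 34.4 CPM with saline. Both groups were tight and far from each other. The log2 fold change was 1.67 ± 0.20, a 3.18-fold difference (edgeR adjusted p = 0.0255). Stab2 (chromosome 10, 86841198 to 87008025), a scavenger receptor of sinusoidal endothelium in liver, spleen and lymph node, stood at 38.1 and 34.8 CPM against 6.71 and 3.08 CPM. The MHE libraries agreed closely and PBS replicate 1 was 2.18-fold above PBS replicate 2. The log2 fold change was 2.90 ± 0.42, a 7.45-fold difference (edgeR adjusted p = 0.0375), and it became 3.55 when PBS replicate 1 was left out and 2.45 when PBS replicate 2 was. Without MHE replicate 1 or 2 neither gene passed (edgeR adjusted p = 0.311 and 0.261 for Lyve1, 0.327 and 0.282 for Stab2), at log2 fold changes of 1.61 and 1.75 for Lyve1 and 2.85 and 2.97 for Stab2.

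Macrophage markers are given beside Lyve1, since macrophages can carry it. Of 13 macrophage markers, Timd4, a receptor for apoptotic cells, rose (log2 fold change 5.80 ± 0.33, edgeR adjusted p = 0.0192) and 12 did not pass, with 2 passing by DESeq2. Fold changes were negative for 8 of 13, with a median of -0.20. Vsig4, a complement receptor of resident macrophages, stood at 0.903 and 0.597 CPM with the extract and 8.37 and 2.91 CPM with saline (log2 fold change -2.90 ± 0.68, edgeR adjusted p = 0.0754). Adgre1, which encodes F4/80, had -1.11 ± 0.63 and Cbr2 -0.39 ± 0.21, with edgeR adjusted p of 0.303 and 0.281. Positive log2 fold changes besides Timd4 were small, at 0.14 for Csf1r, 0.04 for C1qa, 0.007 for Mrc1 and 0.002 for C1qc. Small negative ones included Cd163 at -0.04 and Folr2 at -0.27. The list summed to 1439 and 1941 CPM with the extract and to 2321 and 1419 CPM with saline, so its groups overlapped. No macrophage marker was at 0. The part of macrophages in the level of Lyve1 was not tested.

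The surface protein and the chemokine receptor did not separate the groups. Pdpn (chromosome 4, 143267431 to 143299564) encodes podoplanin, a mucin-like protein needed to keep blood and lymph vessels apart. It stood at 7.86 and 16.3 CPM with the extract and at 23.8 and 12.7 CPM with saline, with the highest value in PBS replicate 1 (log2 fold change -0.60 ± 0.48, edgeR adjusted p = 0.451). Leaving out 1 library gave -0.15 without MHE replicate 1, -1.20 without MHE replicate 2, -0.09 without PBS replicate 1 and -0.97 without PBS replicate 2. PBS replicate 1 also held most of the mesothelial transcripts. The 7 mesothelial markers summed to 151 CPM there, to 1.78 and 5.23 CPM with the extract and to 4.56 CPM in the other saline library. Krt19 of that list had 78.6 CPM in PBS replicate 1, and Wt1, a defining mesothelial gene, was at 0 counts in both MHE libraries. The part of mesothelium in the level of Pdpn was not tested. Ackr4 (chromosome 9, 104084157 to 104126933), a scavenger of the chemokines CCL19 and CCL21 on sinus-lining cells, stood at 8.04 and 5.69 CPM against 6.32 and 5.31 CPM, and the groups overlapped. Its log2 fold change was 0.24 ± 0.33 (edgeR adjusted p = 0.656).

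The secreted glycoproteins were higher in both MHE libraries and neither passed. Reln (chromosome 5, 21884454 to 22344702), which encodes reelin, a matrix protein of collecting lymphatics and brain, stood at 16.8 and 14.4 CPM with the extract and 8.09 and 5.68 CPM with saline. Its log2 fold change was 1.18 ± 0.29, with an edgeR adjusted p of 0.0801. Mmrn1 (chromosome 6, 60924976 to 60989378), which encodes multimerin 1, a carrier of coagulation factor V, stood at 43.0 and 44.0 CPM against 25.3 and 1.69 CPM. The MHE libraries were nearly equal, while PBS replicate 1 was 15.0-fold above PBS replicate 2. The log2 fold change was 1.69 ± 1.11 (edgeR adjusted p = 0.361). It was 4.67 without PBS replicate 1, where Mmrn1 passed, and 0.79 without PBS replicate 2. The 7 platelet and megakaryocyte markers, given because platelets hold Mmrn1, summed to 71.6 and 70.2 CPM with the extract and 58.5 and 50.4 CPM with saline, with Itgb3, an integrin, the 1 that rose. The part of platelets in the level of Mmrn1 was not tested.

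**Figure D2:**
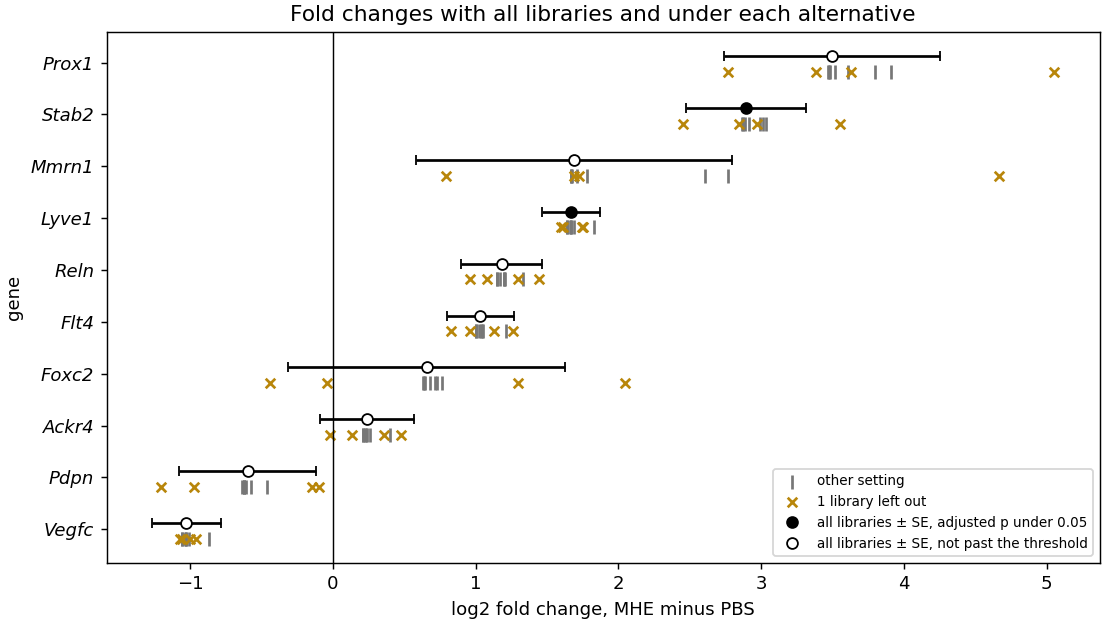
Log2 fold change of each gene, MHE minus PBS, with all libraries (circles ± SE; filled where the adjusted p is under 0.05) and under each alternative (grey ticks for other settings, gold crosses for a fit with 1 library left out). Lyve1 and Stab2 are filled, Prox1 spans 2.77 to 5.06 and Mmrn1 0.79 to 4.67 when a library is left out, and only Foxc2 and Ackr4 have points on both sides of 0.

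Which genes passed depended on the tool and on single libraries. A fit with 1 library left in a group takes its spread between replicates from the other group alone. With DESeq2, 6 of 10 passed, Flt4, Lyve1, Prox1, Reln and Stab2 higher and Vegfc lower, where 18.2% of all tested genes passed. With limma-voom, Lyve1, Prox1 and Stab2 passed, where 7.00% of all genes did. Without PBS replicate 1, Lyve1, Mmrn1, Prox1, Reln and Stab2 passed (16.5% of all genes), and without PBS replicate 2, Flt4, Lyve1, Prox1 and Stab2 did (14.6%). Without MHE replicate 1 or 2, edgeR called 0 genes of all those tested, with 2352 and 2596 at an unadjusted p under 0.05, 4 and 6 of them among the 10.

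Some reads cannot be assigned with certainty, because the use of strand in counting is not given in the sources used here. In GENCODE M21, exons of Prox1 share 133 bases with the antisense gene Prox1os, exons of Reln share 246 bases with Gm10475, and exons of Stab2 share 141 bases with Gm16268. Exons of Ackr4 share 479 bases with Acad11, a gene on the opposite strand.

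Compared per length, as CPM per kilobase of merged GENCODE exons, Lyve1 had the highest level of the 10 in all 4 libraries. With the extract it stood at 39.9 ± 2.72 CPM per kilobase, followed by Mmrn1 (7.42 ± 0.118), Pdpn (6.65 ± 3.30), Stab2 (4.16 ± 0.263), Flt4 (3.59 ± 0.292), Vegfc (2.64 ± 0.137), Prox1 (2.18 ± 0.261), Ackr4 (1.28 ± 0.309), Reln (0.658 ± 0.0706) and Foxc2 (0.527 ± 0.402). In that order Mmrn1 and Pdpn, Pdpn and Stab2, and Reln and Foxc2 overlapped between libraries, and the other neighbours did not. With saline the order was Lyve1 (12.6 ± 1.07 CPM per kilobase), Pdpn (10.1 ± 4.30), Vegfc (5.38 ± 0.210), Mmrn1 (2.30 ± 2.85), Flt4 (1.75 ± 0.347), Ackr4 (1.08 ± 0.133), Stab2 (0.559 ± 0.294), Foxc2 (0.334 ± 0.296), Reln (0.290 ± 0.0717) and Prox1 (0.194 ± 0.183). There Lyve1 and Pdpn overlapped, as did Mmrn1 and Flt4, and the neighbours from Stab2 down to Prox1. Prox1 thus ranked 7 in both MHE libraries and 10 in both PBS libraries.

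The counts of the other genes per count of Prox1 within a library need no scaling between libraries. Since Prox1 had the largest fold change of the 10, every such ratio of group means is lower with the extract by construction. The values are given as a description of size. Intervals are exact 95% binomial intervals turned into ratios, for counting error only. There were 7.29 (6.67 to 7.98) and 5.58 (5.11 to 6.12) Lyve1 counts per Prox1 count in MHE replicates 1 and 2, and 14.3 (11.3 to 18.4) and 63.7 (39.0 to 112) in the same order with saline. For Flt4 these ratios were 1.66 and 1.57 with the extract and 4.59 and 30.4 with saline. The ratios of Stab2 were closer together, at 2.27 and 1.75 with the extract and 2.48 and 5.69 with saline. Vegfc had 0.372 and 0.337 counts per Prox1 count with the extract and 5 and 23.7 with saline, and Pdpn was also far apart (0.469 and 0.822 against 8.79 and 23.6). PBS replicate 2 rests on 16 Prox1 counts, so its ratios are imprecise.

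**Figure D3:**
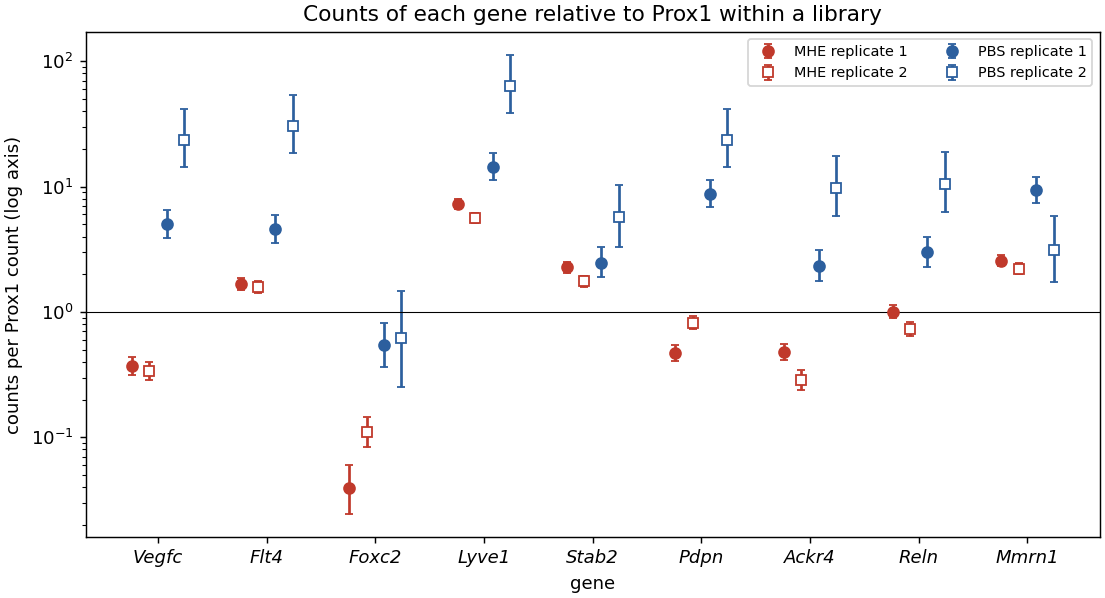
Counts of 9 genes divided by the counts of Prox1 within each library, on a log axis, with exact 95% intervals for counting error (red, MHE; blue, PBS; circles, replicate 1; squares, replicate 2). The MHE ratios lie below the PBS ratios for all 9 genes. The choice of Prox1 as divisor fixes this direction for the group means, but not for each library. The intervals of Stab2 and of Mmrn1 overlap between some MHE and PBS libraries.

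With provisional symbols (Gm and a number, or ending in Rik) left out, the tested genes closest to Prox1 in pattern over the 4 libraries were Gpr183, Myo16, Tmem163, Mir142b and Gimap7. Closeness was the Euclidean distance between log2 CPM values centred on each gene's mean. The distances were 0.247, 0.273, 0.376, 0.392 and 0.401 log2 units. In PBS replicates 1 and 2, Myo16 had only 8 and 0 counts, Tmem163 20 and 3 and Mir142b 14 and 3. Their log2 values there depend on the prior count of 2 added before taking logs, so these distances are imprecise. Gpr183, a receptor that guides B cells and dendritic cells, stood at 62.6 and 61.4 CPM with the extract and 9.31 and 2.26 CPM with saline. Among the lymphatic genes the closest to Prox1 were Stab2 (1.16) and Mmrn1 (1.63), and Vegfc was the farthest (5.06). With 4 libraries such a distance describes these samples only.

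Blood endothelial markers lay mostly on the other side of 0 from the lymphatic genes. The list was not limited to genes that lymphatic endothelium lacks, so its sum can include lymphatic cells. None of 12 blood endothelial markers passed the edgeR test (3 at an unadjusted p under 0.05, 2 with DESeq2 and 0 with limma-voom). Among all 16196 tested genes, 4626 had an edgeR unadjusted p under 0.05, and 18.2% passed with DESeq2. Fold changes were negative for 11 of the 12 markers, with a median of -0.61. Cldn5, a tight junction protein of vessel walls, stood at 182 and 152 CPM with the extract and at 275 and 458 CPM with saline. Cdh5, which encodes the endothelial cadherin, stood at 145 and 193 CPM against 233 and 498 CPM, and Esam, a junction gene, at 52.3 and 49.8 CPM against 82.0 and 127 CPM. The venous and fenestrated vessel gene Plvap was the 1 with a positive value (log2 fold change 0.80 ± 0.28, edgeR adjusted p = 0.150). The summed CPM of all 10 lymphatic genes was 21.4% and 20.6% of that of the blood endothelial list in MHE replicates 1 and 2 and 9.51% and 3.51% in PBS replicates 1 and 2, a 3.63-fold difference (1.86 on a log2 scale). The 6 genes with both MHE libraries above both PBS libraries, Prox1, Lyve1, Flt4, Mmrn1, Reln and Stab2, summed to 19.7% and 18.3% of the blood endothelial sum with the extract, and 6.43% and 2.33% with saline. For these 6 the groups differed by 2.30 on a log2 scale, or 4.91-fold, with a pooled SD of 0.73 between replicates. The difference became 3.03 when PBS replicate 1 was left out, 1.57 when PBS replicate 2 was, and 2.41 with Lyve1 taken out of the sum. Both sums are descriptions with no test, and the choice of the 6 fixes the direction of their sum.

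Lymphocyte markers, and part of those of lymph node stroma, were also higher with the extract. All 8 T cell markers (Cd3e, Cd3d, Cd3g, Cd4, Cd8a, Cd28, Lck and Themis) rose and summed to 778 and 599 CPM with the extract and 32.6 and 11.1 CPM with saline. Of 8 B cell markers, Cd22 and Fcer2a rose, and the list summed to 1802 and 1399 CPM against 102 and 6.05 CPM. With DESeq2 7 of these 8 passed and with limma-voom 4, where 18.2% and 7.00% of all tested genes did. With no low-count filter Cd3d, Cd4, Cd22 and Fcer2a no longer passed (edgeR adjusted p = 0.0704, 0.0514, 0.0727 and 0.0714). Of 7 tested markers of fibroblastic reticular and follicular stroma, Cxcl13, Tnfsf11 and Cr2 rose, Cr2 being also a B cell receptor. Of these, Tnfsf11 did not pass with the replicate block (edgeR adjusted p = 0.0623). With DESeq2 6 of the 7 markers passed and with limma-voom 3, beside the same shares of all tested genes. The list summed to 772 and 730 CPM against 320 and 445 CPM. Its chemokine Ccl19 was at 0 counts in all 4 libraries. Of 6 high endothelial venule markers, Glycam1, a lymph node venule mucin, rose, at 72.1 and 28.1 CPM against 0.0722 and 0 CPM. The list summed to 444 and 356 CPM against 220 and 423 CPM, so its groups overlapped. Most of that sum was Enpp2, at 348 and 314 CPM against 208 and 411 CPM. Fold changes were positive for 5 of the 6 and negative for 1. Between the PBS libraries, the T and B cell sums were higher in replicate 1, as were Prox1, Stab2, Mmrn1, Foxc2 and, by under 2-fold, Pdpn, Reln, Ackr4, Lyve1 (1.13-fold) and Vegfc, while Flt4 was lower there, at 0.75 times replicate 2. The part of lymph node tissue in the lymphatic gene levels was not tested.

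**Figure D4:**
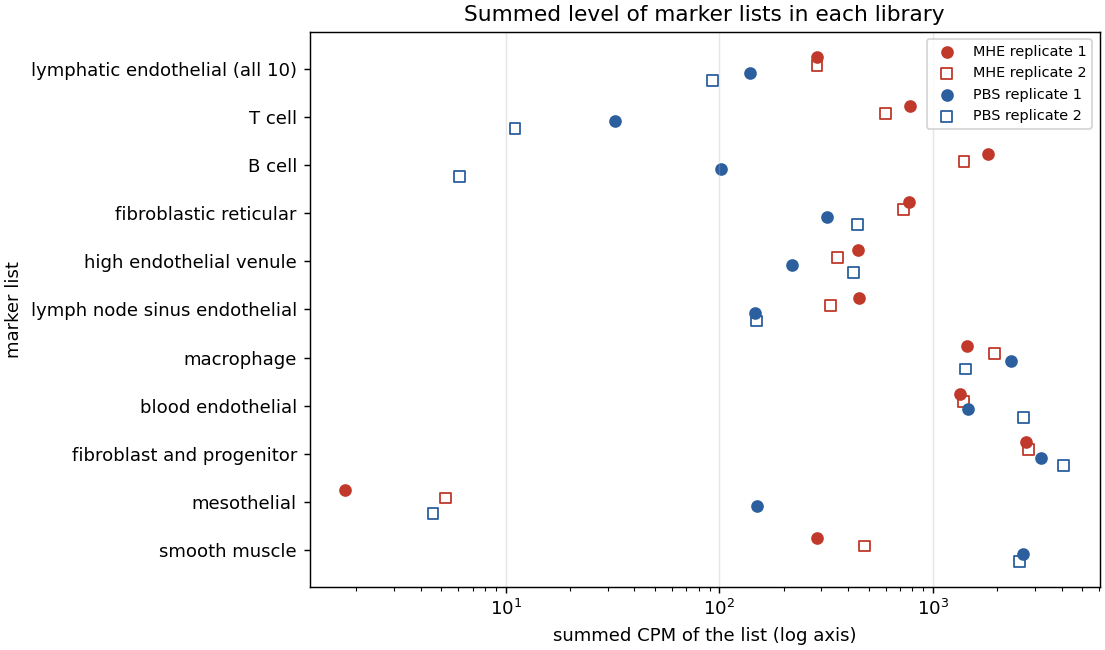
Summed CPM of marker lists in each library, on a log axis (red, MHE; blue, PBS; circles, replicate 1; squares, replicate 2), where the top row sums all 10 lymphatic endothelial genes. T cell, B cell and lymphatic sums are highest in the MHE libraries and lowest in PBS replicate 2, the macrophage sums overlap, and PBS replicate 1 stands apart for mesothelial markers at 151 CPM.

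Genes that sinus endothelium of lymph nodes expresses had mostly positive fold changes. Of 12 such genes, Marco, a scavenger receptor that sinus macrophages carry as well, rose and 11 did not pass, and 11 of 12 had positive fold changes (median 1.32). With DESeq2 5 of the 12 passed and with limma-voom 2, where 18.2% and 7.00% of all tested genes did. Marco stood at 250 and 104 CPM with the extract and 3.07 and 2.97 CPM with saline (log2 fold change 5.87 ± 0.55, edgeR adjusted p = 0.0212), and it was 5.11 without MHE replicate 1. Madcam1, an addressin of the subcapsular sinus floor, stood at 1.75 and 1.90 CPM against 0 and 0.203 CPM (edgeR adjusted p = 0.112). The lectin gene Clec4g stood at 2.92 and 1.19 CPM against 0.217 and 0.135 CPM (edgeR adjusted p = 0.0683). Il7, a lymphocyte survival factor, had a log2 fold change of 1.64 ± 0.31 (edgeR adjusted p = 0.0529). Madcam1, Clec4g and Il7 passed with DESeq2, and of these only Il7 with limma-voom. Ptx3, Kcnj8, Msr1 and Bmp2 overlapped between the groups, and Bmp2 had the negative log2 fold change (-0.42).

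The rest of the VEGF-C pathway did not pass. Of 11 tested genes that bind, process or relay VEGF-C signals, 0 passed with edgeR and 1 had an unadjusted p under 0.05. With DESeq2 or limma-voom 0 passed. Their median log2 fold change was -0.53. Among all 16196 tested genes, 4626 had an edgeR unadjusted p under 0.05. Vegfd, the second ligand of VEGFR-3, stood at 5.51 and 14.9 CPM with the extract and 32.9 and 20.3 CPM with saline, without overlap (log2 fold change -1.39 ± 0.54, edgeR adjusted p = 0.174). The value was -0.82 without MHE replicate 1 and -2.26 without MHE replicate 2. The co-receptor gene Nrp1 had -0.73 ± 0.49 and the phosphatase gene Ptprj 0.69 ± 0.28, with edgeR adjusted p of 0.369 and 0.182. That of Nrp1 lay between -1.38 without MHE replicate 2 and -0.26 without PBS replicate 2. Ptpn14, a phosphatase that restrains lymphatic growth, had -0.84 ± 0.56 (edgeR adjusted p = 0.367), and 0.013 without PBS replicate 2.

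Of 12 other transcription factor genes of lymphatic development, Nfatc1, which acts in lymphatic patterning and in activated T cells, rose and 11 did not pass (median log2 fold change -0.19). With DESeq2 5 of the 12 passed and with limma-voom 2, where 18.2% and 7.00% of all tested genes did. Nfatc1 stood at 101 and 105 CPM with the extract and 34.4 and 40.4 CPM with saline (log2 fold change 1.47 ± 0.20, edgeR adjusted p = 0.0335). Hhex, a homeobox gene of endothelium and B cells, had 1.72 ± 0.35 (edgeR adjusted p = 0.0595) and passed with DESeq2 and with limma-voom. The SOX factor genes Sox17 and Sox7, which blood vessels also express, had -1.12 ± 0.31 and -0.96 ± 0.26, with edgeR adjusted p of 0.0995 and 0.0967. Both passed with DESeq2 and neither with limma-voom.

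Among 15 tested genes of lymphatic valves and collecting vessels, Gja1, which encodes the gap junction protein connexin 43 and is expressed in many stromal cells, fell and 14 did not pass (median log2 fold change -0.27). With DESeq2 3 of the 15 passed and with limma-voom 1, where 18.2% and 7.00% of all tested genes did. Gja1 stood at 23.5 and 37.3 CPM with the extract and 107 and 96.1 CPM with saline (log2 fold change -1.74 ± 0.29, edgeR adjusted p = 0.0430), and with the replicate block it did not pass (edgeR adjusted p = 0.0560). Itga9, the integrin chain of valve leaflets, stood at 33.9 and 37.2 CPM against 21.5 and 17.6 CPM (log2 fold change 0.86 ± 0.21, edgeR adjusted p = 0.0800). Gja4, which encodes the valve connexin 37, had -0.68 ± 0.25 (edgeR adjusted p = 0.160), and Efnb2, the ephrin of arteries and lymphatic valves, -0.86 ± 0.32 (edgeR adjusted p = 0.162).

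Of 18 further genes of lymphatic endothelium, Sema3a and Thy1 rose and 16 did not pass (median log2 fold change 0.30). With DESeq2 3 of the 18 passed, as with limma-voom, where 18.2% and 7.00% of all tested genes did. Sema3a, a guidance cue that lymphatic endothelium secretes and that acts in valve formation, stood at 13.7 and 13.4 CPM with the extract and 1.30 and 1.12 CPM with saline. Its log2 fold change was 3.48 ± 0.30 (edgeR adjusted p = 0.0210). Sema3d, of the same family, had 1.43 ± 0.28 at an edgeR adjusted p of 0.0545, and it passed with DESeq2 and with limma-voom. Thy1, a surface protein of lymphatic endothelium and also of T cells and fibroblasts, stood at 239 and 167 CPM against 27.8 and 49.9 CPM (edgeR adjusted p = 0.0429), and with the replicate block it did not pass (edgeR adjusted p = 0.0661). Ackr3, a scavenger of adrenomedullin, had a log2 fold change of -0.81 ± 0.30 (edgeR adjusted p = 0.160). Ccl21a, the chemokine that draws cells into lymphatics, was singled out after its values were seen. It had 630 and 375 CPM with the extract and 124 and 1.22 CPM with saline (edgeR adjusted p = 0.319), and its near-identical copies Ccl21b and Ccl21c make the split of reads between them uncertain. The calls for Marco, Nfatc1, Gja1, Sema3a and Thy1 were all lost without MHE replicate 1 or 2, as were those of all other genes.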

How the data were processed

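Each of the 4 libraries came as a list of 26214 gene symbols with raw read counts, as the authors deposited them. The genome build was mm10, and the tools named are TopHat2, limma and edgeR, per the submitters' processing notes. Their versions, the gene models, the counter and its strand setting were not given in the sources used here. Per the labels' protocols, RNA was isolated with Trizol and each treatment had triplicate libraries, of which 2 per group were analysed here.

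Counts were analysed with edgeR 4.0.16 in R 4.3.3. Genes were kept by filterByExpr at a minimum count of 10 and a total of 15, scaled by TMM and tested by robust quasi-likelihood. The SE is the absolute log2 fold change over the square root of F. Other settings tried were DESeq2 size factors within edgeR, unscaled library totals, DESeq2 1.42.0, limma-voom (limma 3.58.1), no filter, a higher filter (50 counts in all, with 2 libraries at or above 1 CPM), a replicate block and each library left out. A left-out library leaves 1 in its group, assumed to vary like the other group. The procedure was also run on counts simulated with the dispersions fitted here. That run required only the right sign of large planted changes, so it does not bear on the calls given here. Positions and exon lengths come from GENCODE M21, and promoters from RefSeq, both of GRCm38, the assembly of mm10.

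The lymphatic genes and all lists were chosen with earlier results of these data known. The rule for naming took the lymphatic genes, the genes of each other list that passed or had its 4 smallest p, and the 5 genes closest to Prox1. Provisional symbols were left out of the last. For lists of other cell types the text names only part of these. Wt1, Ccl19, Enpp2, Cnn1, Des, Ptx3, Kcnj8, Msr1, Bmp2, the Ccl21 genes, the hyaluronan genes and the macrophage markers given without SE fall outside the rule. They were chosen after their values were seen. P-values measure the spread between libraries labelled as biological replicates.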

Additional observations from a re-analysis of the deposited data

How the results depend on the processing

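The count of genes past the threshold was 799 with all libraries, 2951 with DESeq2, and 0 to 2750 when a library was left out. Among the lymphatic genes it was 2, with 6 by DESeq2 and 0 to 5 when a library was left out. The cause of these shifts was not tested. By design, a fit with 1 library left in a group takes its spread between replicates from the other group alone. Over 110 values of the lymphatic genes under alternatives, 92 kept their direction and side of the threshold, 4 lost and 11 gained a call, and 3 turned. Those that turned were Ackr4 without MHE replicate 1 (-0.017, range -0.017 to 0.48 over left-out libraries) and Foxc2 without MHE replicate 2 (-0.44) and without PBS replicate 2 (-0.04, range -0.44 to 2.05). Among other named genes, the phosphatase gene Ptpn14 turned without PBS replicate 2 (0.013, range -1.39 to 0.013). Library totals alone moved the median of all genes from -0.02 to 0.14 on the log2 scale. The replicate numbers name libraries and are not stated to mark a shared batch. Deviations of same-numbered libraries correlated at 0.12 over genes. With the replicate block, 764 genes passed, Lyve1 and Stab2 among them, and Gja1, Thy1 and Tnfsf11 did not (edgeR adjusted p = 0.0560, 0.0661 and 0.0623). With 16 counts of Prox1 and 10 of Foxc2 in PBS replicate 2, counting error limits those values. The sum of all 10 lymphatic genes over blood endothelial markers was added after seeing the data.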

Other observations

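Since both receptors that rose bind hyaluronan, other genes of hyaluronan binding, synthesis and breakdown were looked at after these values had been seen, so their values are given without a test. Cd44, the main hyaluronan receptor of leukocytes and stromal cells, stood at 99.6 and 115 CPM in MHE replicates 1 and 2 and at 144 and 61.1 CPM in PBS replicates 1 and 2. Stab1, the paralogue of Stab2 found on macrophages as well as sinusoidal endothelium, stood at 55.7 and 115 CPM with the extract and at 120 and 80.4 CPM with saline. Both overlapped between groups. The hyaluronan synthase gene Has2 stood at 4.67 and 7.37 CPM against 1.62 and 2.47 CPM, and Cemip, which takes part in hyaluronan breakdown, at 3.16 and 4.35 CPM against 0.722 and 0.0338 CPM, the last being 1 count. Hyal1, a lysosomal hyaluronidase, lay the other way, at 15.5 and 20.9 CPM with the extract and 35.3 and 27.7 CPM with saline. The other synthase genes were low: Has1 stood at 0.0903 and 3.12 CPM with the extract and 0.433 and 1.76 CPM with saline, overlapping, and Has3 at 1.99 and 1.40 CPM against 1.05 and 1.18 CPM. Hmmr, a hyaluronan-binding gene of dividing cells, overlapped as well, at 2.17 and 4.81 CPM against 2.89 and 1.05 CPM. Hyal2 stood at 42.1 and 34.7 CPM against 41.9 and 32.3 CPM.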
